A study of Mus musculus with 8 samples.

Results

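The growth hormone and STAT5 axis of mouse liver was followed through 9 genes: the receptor Ghr, the kinase Jak2, the transcription factors Stat5a and Stat5b, the feedback inhibitors Socs2 and Cish, the secreted outputs Igf1 and Igfals, and the repressor Bcl6. Each gene was found by matching its symbol to the Ensembl gene ID of a row in the deposited expression table. The 9 genes are 9 of the 38283 genes in that table, and all 9 were among the 11634 genes with an FPKM above 1 in at least 1 library. They were selected on their names, with their levels and their genotype and diet differences in these same libraries already known, so no difference given for them is independent of how they were chosen. FPKM counts sequenced fragments relative to transcript length and to the size of the library, so levels can be set roughly side by side between genes. Between libraries they also depend on the share that the most abundant genes take. Group differences below were estimated on normalized values.

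Growth hormone from the pituitary binds GHR on the hepatocyte, and the JAK2 kinase bound to the receptor then phosphorylates STAT5A and STAT5B, which enter the nucleus as dimers. STAT5 induces the liver's IGF-1, its carrier protein IGFALS (the acid-labile subunit) and the inhibitors SOCS2 and CIS (the product of Cish), which shut the receptor signal off again, and it lowers Bcl6, whose product represses many of the genes that STAT5 activates. In male rodents growth hormone arrives in pulses, in females more evenly, and this difference sets the sex-biased expression of many liver genes.

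The livers came from male C57BL/6 mice with floxed RORa alleles, either without Cre (RORα f/f) or with Cre driven by the albumin promoter (Alb-cre;RORa f/f, called RORα LKO for liver-specific knockout). RORα is a nuclear receptor and a component of the circadian clock. Mice ate a control diet (CD) or a high-fat diet (HFD, 60% of calories from fat) for 10 weeks from 8 weeks of age. Each of the 4 groups had 4 mice, whose livers were pooled by 2 into 2 libraries, so n = 2 throughout and the spread between libraries is one between pools, which is all that the p-values measure. The albumin promoter drives Cre in hepatocytes, and other liver cells of the LKO mice keep the floxed alleles. In whole liver, fewer cells of a type and less RNA per cell cannot be told apart.

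In the f/f-labelled CD library 2 a single gene, ENSMUSG00000093077, took 18.7% of the summed FPKM, and in the other libraries no gene took more than 9.28%. Between 10587 and 10706 genes had an FPKM above 1 in each library, and the Spearman correlation with the other library of its group was 0.969 to 0.975. Read totals are not given with FPKM values, so the depth behind each value is unknown. Hepatocyte markers were abundant in all 8 libraries (Apoa1 at 4407 to 6290 FPKM and Ttr at 3994.5 to 4541 FPKM), but Alb was listed at 0 in 4 of them, where the other 4 had 29902 to 30888 FPKM, and these zeros are not read as levels. Not all of these markers were even between diets. Tat had 480 to 1036 FPKM on CD and 250 to 322.5 FPKM on HFD, and Cps1 669 to 793 FPKM on CD and 455 to 666 FPKM on HFD. The adipocyte markers Adipoq, Lep, Plin1 and Retn were each below 1 FPKM in every library, and listed at 0 in some. The fifth adipocyte marker, Cfd, was at 5.45 and 5.29 FPKM in LKO on HFD, 2.76 FPKM in the LKO-labelled CD library 1 and 1.87 FPKM in the f/f-labelled HFD library 2, and at 0.182 to 0.538 FPKM in the other 4 libraries. The part of such cells in the values below was not tested. Rora itself, summed over the whole gene, was at 8.85 and 8.59 FPKM in the f/f libraries and 7.96 and 8.18 FPKM in the LKO libraries on CD. On HFD it was at 7.56 and 7.86 FPKM in f/f and at 7.30 and 8.02 FPKM in LKO, so the HFD groups overlapped. A whole-gene value also counts exons outside the floxed segment and does not check the labels, so the libraries are called f/f-labelled and LKO-labelled below, and every genotype direction rests on these labels.

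The receptor, the kinase, both STAT5 genes and the IGF outputs were steady over the 8 libraries, with at most 1.82-fold between the highest and the lowest value (Stat5a), whereas Socs2, Cish and Bcl6 spanned 6.95-, 6.06- and 9.66-fold, much of it between the 2 libraries of 1 group. The levels themselves covered a wide range. Igf1 had the highest mean over the 8 libraries, 353 FPKM (rank 204 of all genes in the table), followed by Ghr at 226 FPKM (rank 317) and Igfals at 52.8 FPKM. Bcl6 averaged 14.5 FPKM and Stat5b 9.01 FPKM. Socs2, Stat5a, Jak2 and Cish were the lowest, with means of 4.54, 4.51, 3.47 and 2.10 FPKM. The means of Socs2 and Stat5a differed by far less than the spread of Socs2 over the libraries (SD of 3.63 FPKM, n = 8), and the order of those neighbours is not resolved.

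**Figure D1:**
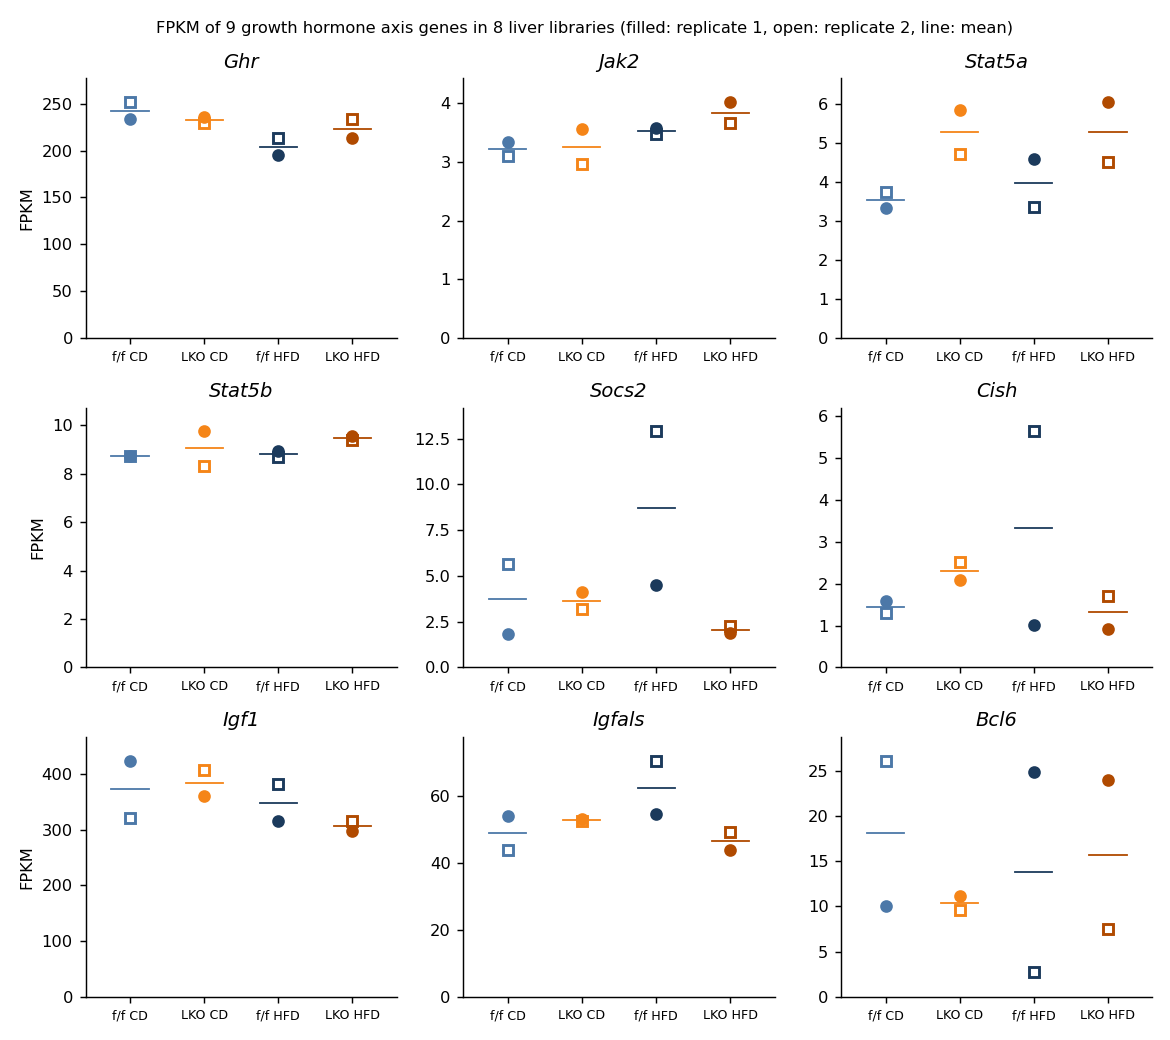
FPKM (vertical axis, linear from 0) of the 9 genes in the 2 libraries of each group (filled circle for replicate 1, open square for replicate 2, line for the mean). Ghr, Jak2 and Stat5b sit close together within groups, whereas Socs2, Cish and Bcl6 differ between libraries of 1 group, most of all in the f/f-labelled HFD pair, where Bcl6 was at 24.9 and 2.71 FPKM.

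Differences between groups were estimated with limma on quantile-normalized log2(FPKM + 1) values over all 11634 genes, and all p-values were adjusted over those genes by the Benjamini-Hochberg method. A fold change on this scale understates the change of low genes such as Cish. A permutation rule modelled on that of the study was applied to the genotype comparisons. It calls a gene at a combined p of at most 0.05 with a log2 fold change of at least 0.48, the 95th percentile computed here over 100 regroupings, which is a higher cutoff than the one the study used. The regrouped values are pooled over all genes, so the combined p of a gene with a wide spread can be too small. Because the 9 genes were chosen with results of these libraries known, their differences below are a description of the libraries. Comparisons that share a group share its libraries and are not independent of each other.

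Ghr (ENSMUSG00000055737, chr15:3317760-3583492 on the minus strand, GRCm38) encodes the receptor that starts the cascade. Its level was 234 and 252 FPKM in the f/f-labelled CD libraries, 236 and 229.8 FPKM in the LKO-labelled CD libraries, 195 and 213 FPKM in f/f on HFD, and 213 and 234 FPKM in LKO on HFD. The highest library was only 1.29-fold above the lowest. The f/f-labelled HFD libraries were both below the f/f-labelled CD libraries, by 0.19 on the log2 scale (log2 difference -0.19, SE 0.08, adjusted p = 0.282 by limma), while in the LKO-labelled libraries the diets overlapped (0.03, SE 0.08). The diet response of the 2 genotypes differed by 0.21 (SE 0.12, adjusted p = 0.661 by limma), so no difference between them was resolved.

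Jak2 (ENSMUSG00000024789, chr19:29251828-29313080, plus strand), the receptor-bound kinase, was expressed at 2.96 to 4.02 FPKM. On HFD the LKO-labelled libraries had 4.02 and 3.67 FPKM against 3.59 and 3.47 FPKM in f/f, and on CD the values were 3.57 and 2.96 FPKM in LKO against 3.35 and 3.11 FPKM in f/f. In both genotypes the HFD libraries lay above the CD libraries without overlap. Averaged over genotypes the diet difference of Jak2 was 0.17 (SE 0.07) on the log2 scale, with an unadjusted limma p of 0.049 and an adjusted p of 0.176.

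Stat5a and Stat5b are neighbouring genes on chromosome 11 that encode closely related proteins. Stat5b (ENSMUSG00000020919, chr11:100780731-100850724, minus strand) was the steadiest of the 9 genes, with 8.75 and 8.72 FPKM in f/f on CD, 9.74 and 8.33 FPKM in LKO on CD, 8.93 and 8.67 FPKM in f/f on HFD and 9.56 and 9.37 FPKM in LKO on HFD. Its limma differences in the 4 two-group comparisons lay between 0.04 and 0.11 log2, each smaller than 2 standard errors. Stat5a (ENSMUSG00000004043, chr11:100859351-100885169, plus strand) had 3.32 and 3.75 FPKM in f/f on CD against 5.84 and 4.72 FPKM in LKO on CD. These libraries did not overlap, with a log2 difference of 0.46 (SE 0.17, 95% interval 0.06 to 0.87, adjusted p = 0.349 by limma). On HFD the LKO-labelled libraries had 6.05 and 4.50 FPKM and the f/f-labelled libraries 4.59 and 3.35 FPKM, so the groups overlapped (0.34, SE 0.17, adjusted p = 0.596 by limma). That difference was 0.17 without the f/f-labelled HFD library 2, 0.15 without the LKO-labelled HFD library 1 and 0.53 without the LKO-labelled HFD library 2. Averaged over diets, the genotype difference of Stat5a was 0.40 (SE 0.12), the largest of the 9 genes relative to its error, with an unadjusted limma p of 0.014 and an adjusted p of 0.228. The annotated transcripts of Stat5a and Stat5b share 608 sequences of 50 bases, 8.21% of those of Stat5a and 10.98% of those of Stat5b, and reads from these stretches could be counted for either gene. Stat5a also overlaps exons of Stat3, on the opposite strand, by 72 bases.

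The feedback inhibitors were less steady. Socs2 (ENSMUSG00000020027, chr10:95385362-95417180, minus strand), whose product limits growth hormone signaling, had 1.85 and 5.62 FPKM in the f/f-labelled CD libraries and 4.11 and 3.17 FPKM in the LKO-labelled CD libraries. On HFD it had 4.50 and 12.9 FPKM in f/f and 1.90 and 2.24 FPKM in LKO. Both LKO-labelled HFD libraries were therefore below both f/f-labelled HFD libraries, while on CD the genotypes overlapped. The log2 difference on HFD was -1.51 (SE 0.50, 95% interval -2.70 to -0.32), with an unadjusted limma p of 0.020 and an adjusted p of 0.397, and on CD it was 0.07 (SE 0.50). The permutation rule, which called 4% of all genes on HFD, called Socs2 there (combined p of 0.0070). The regrouped values behind that p come from all genes, and only 1.71% of genes had a within-group spread at least as large as that of Socs2. Without the f/f-labelled HFD library 2, which held the highest value, the difference on HFD was -0.83 (adjusted p = 0.687 by limma). The difference between the 2 genotype differences of Socs2 was -1.58 (SE 0.71, adjusted p = 0.628 by limma), and -0.91 without that library.

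Cish (ENSMUSG00000032578, chr9:107296026-107302784, plus strand), which encodes another STAT5-induced inhibitor of the same protein family, was the lowest of the 9 genes. It had 1.59 and 1.30 FPKM in f/f on CD, 2.08 and 2.52 FPKM in LKO on CD, 1.01 and 5.64 FPKM in f/f on HFD, and 0.930 and 1.71 FPKM in LKO on HFD. On CD the LKO-labelled values exceeded the f/f-labelled ones without overlap, by 0.39 log2 (SE 0.51, adjusted p = 0.783 by limma). On HFD the groups overlapped, and the difference of -0.69 (SE 0.51, adjusted p = 0.717 by limma) had the opposite sign, 0.18, without the f/f-labelled HFD library 2. The difference between the genotype differences was -1.08 (SE 0.72, adjusted p = 0.704 by limma), and -0.21 without that library. In the LKO-labelled libraries Socs2 and Cish were both lower on HFD than on CD without overlap, by 0.56 and 0.51 on the log2 scale (log2 differences -0.56 and -0.51, SE 0.50 and 0.51), with adjusted limma p-values of 0.565 and 0.612.

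An antisense gene, Gm17041, shares 479 exonic bases with Cish, 7.46% of the exonic length of Cish. The library kit does not mark strand, so reads of this stretch from the 2 genes cannot be told apart. Gm17041 was listed at 2.61 and 0.780 FPKM in f/f on CD, 4.16 and 5.40 FPKM in LKO on CD, 3.25 and 13.9 FPKM in f/f on HFD, and 1.34 and 3.31 FPKM in LKO on HFD. Its highest value was thus in the same library as the highest value of Cish, and its lowest HFD value in the same library as the lowest value of Cish.

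**Figure D2:**
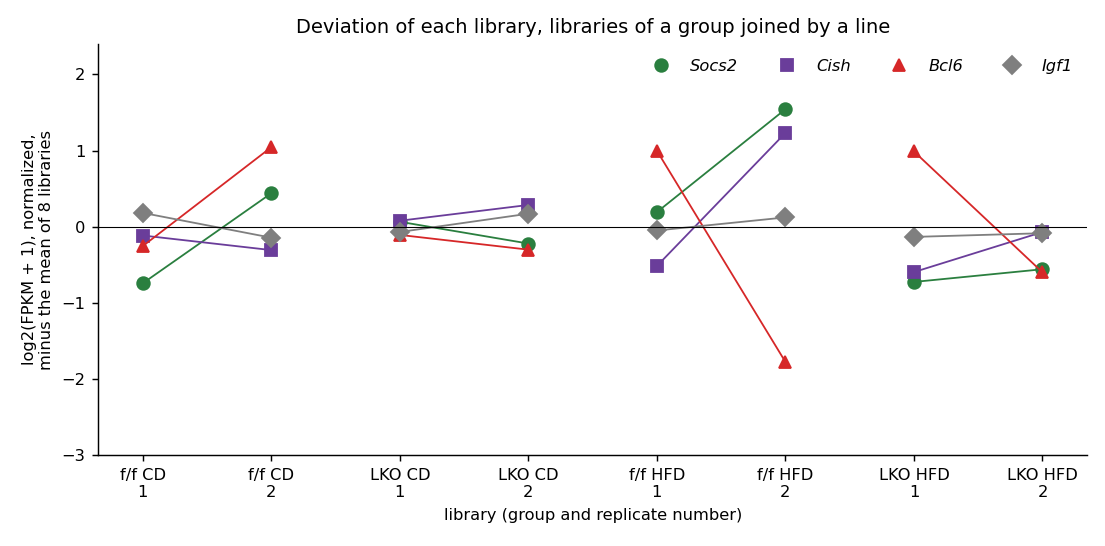
Normalized log2(FPKM + 1) of Socs2, Cish, Bcl6 and Igf1 in each of the 8 libraries, minus the gene's mean over the 8 (vertical axis), with the libraries of a group joined by a line. In the f/f-labelled HFD pair Socs2 and Cish were 1.35 and 1.75 higher in library 2 and Bcl6 2.77 lower, while Igf1 moved by 0.17.

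STAT5 dimers bind the palindrome TTCNNNGAA, which reads the same on both strands. The letters were searched in RefSeq promoter windows of 300 bases (250 before to 50 after each transcript start, GRCm38.p6), in which 8 of the 9 genes matched by symbol, all but Socs2. Of all 32851 windows in that table, 8.30% held the motif at least once, 0.457% at least 2 times and 0.0335% at least 3 times. Among the 9 genes it was found in Cish (2 matches in 1 window), Igfals (1 match in each of 2 windows) and Bcl6 (1 match in 1 window and 3 in another). It was not in the windows of Ghr, Jak2, Stat5a, Stat5b or Igf1, which says only that these letters are absent from these bases. The RORα response element, taken as AGGTCA directly behind the letters AANT and searched on both strands, was in none of the 14 windows of these genes and in 0.219% of all windows. At that share a match in 14 windows is improbable for any genes, so the absence says little. The study describes a wider pattern, (A/G)GGTCA behind an A/T-rich stretch, which was not searched. The stretches with the STAT motif are shown because they belong to the induced inhibitor, the IGF-1 carrier and the repressor whose levels are compared here. Each is written 5′ to 3′ on the gene's strand, with the motif in capitals. They lie at chr9:107296654-107296683 for Cish, at chr17:24877594-24877631 and chr17:24878158-24878196 for Igfals, and at chr16:23988947-23988985 and chr16:23981348-23981466 for Bcl6.
Cish, from 5 bases before the start: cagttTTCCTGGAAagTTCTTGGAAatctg
Igfals, first window: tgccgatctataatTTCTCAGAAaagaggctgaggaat
Igfals, second window: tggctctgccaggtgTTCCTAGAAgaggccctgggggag
Bcl6, first window: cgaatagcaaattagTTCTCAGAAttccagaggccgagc
Bcl6, second window: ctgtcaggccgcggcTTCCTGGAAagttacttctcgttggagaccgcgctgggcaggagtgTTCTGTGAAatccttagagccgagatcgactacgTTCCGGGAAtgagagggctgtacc

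In the Cish stretch the motif begins at the annotated start itself and again 11 bases downstream. The Bcl6 matches of the second window begin at -168, -122 and -88 relative to that start, and the match of the first window at -118 from the other start. A match is a description of sequence and was not tested for binding in these livers.

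Igf1 (ENSMUSG00000020053, chr10:87858265-87937042, plus strand), the main endocrine product of the axis, had 424 and 321 FPKM in f/f on CD and 361 and 407 FPKM in LKO on CD. On HFD it had 315 and 382 FPKM in f/f and 298 and 316 FPKM in LKO. Group means were 373 ± 73 FPKM in f/f on CD, 384 ± 33 in LKO on CD, 349 ± 48 in f/f on HFD and 307 ± 13 in LKO on HFD (SD, n = 2). The largest gap between 2 group means was smaller than the gap between the f/f-labelled CD libraries. The genotype difference was 0.03 (SE 0.13) on CD and -0.15 (SE 0.13, adjusted p = 0.774 by limma) on HFD. Within the LKO-labelled libraries the HFD values lay below the CD values without overlap, with a log2 difference of -0.16 (SE 0.13, adjusted p = 0.536 by limma). The 95% interval of this LKO difference at this sample size was -0.48 to 0.16. In f/f the diet difference of Igf1 was 0.02 (95% interval -0.30 to 0.34).

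Igfals (ENSMUSG00000046070, chr17:24865997-24882010, plus strand) encodes the protein that holds IGF-1 in its large circulating complex. It had 54.2 and 43.9 FPKM in f/f on CD and 53.3 and 52.5 FPKM in LKO on CD, against 54.6 and 70.6 FPKM in f/f on HFD and 43.8 and 49.2 FPKM in LKO on HFD. The f/f-labelled libraries were higher on HFD than on CD and the LKO-labelled libraries lower, in each case without overlap. In f/f the diet difference was 0.39 log2 (SE 0.14, 95% interval 0.07 to 0.72, adjusted p = 0.193 by limma), and 0.21 without the f/f-labelled HFD library 2. In LKO it was -0.13 (SE 0.14, adjusted p = 0.631 by limma). The 2 diet differences differed by -0.52 (SE 0.19), with an unadjusted limma p of 0.031 and an adjusted p of 0.576, and by -0.34 without the f/f-labelled HFD library 2. On HFD the LKO-labelled libraries were both below the f/f-labelled libraries, with a log2 difference of -0.39 (SE 0.14, adjusted p = 0.436 by limma) and of -0.20 without the f/f-labelled HFD library 2, whereas on CD the genotypes overlapped (0.14, SE 0.14).

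Bcl6 (ENSMUSG00000022508, chr16:23965052-23988852, minus strand) differed more between the 2 libraries of a group than between groups. It had 10.03 and 26.1 FPKM in f/f on CD, 11.1 and 9.59 FPKM in LKO on CD, 24.9 and 2.71 FPKM in f/f on HFD and 24.0 and 7.49 FPKM in LKO on HFD. The high and low values were thus spread over 3 of the 4 groups, and all 4 two-group comparisons overlapped. The genotype difference on HFD was 0.58 log2 with a standard error of 0.94 (adjusted p = 0.881 by limma), and -0.80 without the f/f-labelled HFD library 2. On CD it was -0.60 (SE 0.94). Bcl6 is also expressed in immune cells. The summed FPKM of the 7 Kupffer cell and macrophage markers, of which 6 were above 1 FPKM in every library, ran from 58.8 in the f/f-labelled HFD library 2, where Bcl6 was lowest, to 103 in the LKO-labelled HFD library 1, where it was 24.0 FPKM. The f/f-labelled CD library 2, with the highest Bcl6 at 26.1 FPKM, had a sum of 99.9. The f/f-labelled HFD library 1, with Bcl6 at 24.9 FPKM, had the second-lowest sum, 71.4, so the 2 orders were alike only in part. The 5 lymphocyte markers summed to 1.71 to 3.03 FPKM, with Cd8a and Ms4a1 listed at 0 in some libraries. The part of these cells in the Bcl6 values was not tested.

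Set against all genes, the spread of 3 members within groups was wide. The pooled within-group SD was 0.65 log2 for Socs2, 0.65 for Cish and 1.22 for Bcl6, against a median of 0.12 over the 11634 tested genes. Only 1.71%, 1.68% and 1.09% of those genes had an SD at least as large. The other 6 genes lay within the bulk of the distribution, from 0.07 for Stat5b to 0.20 for Stat5a. In the f/f-labelled CD pair, library 2 exceeded library 1 by 1.18 log2 for Socs2 and 1.30 for Bcl6, while Cish differed by -0.19. In the f/f-labelled HFD pair Socs2 was 1.35 and Cish 1.75 higher in library 2 and Bcl6 was 2.77 lower (a difference of -2.77), a size matched or exceeded by 0.387% of tested genes. In the LKO-labelled HFD pair Cish was 0.53 higher in library 2, Socs2 0.17 higher, and Bcl6 differed by -1.59. In the LKO-labelled CD pair none of the 3 differed by more than 0.29 in size. Socs2 and Bcl6 thus differed in opposite directions in both HFD pairs and in the same direction in both CD pairs. What set the 2 pools of a group apart was not recorded in the labels, and the hour of collection and its relation to a growth hormone pulse are not given in the sources used here.

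**Figure D3:**
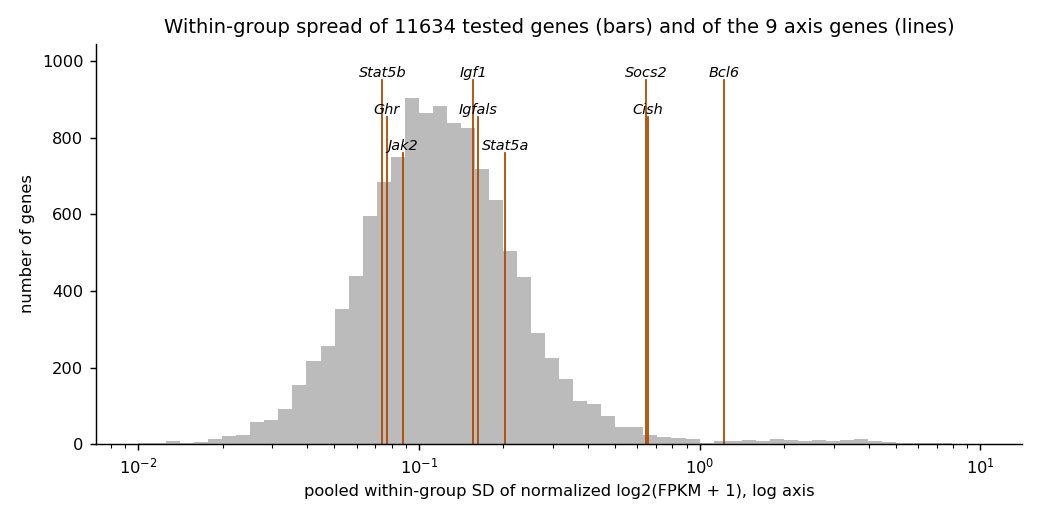
Number of genes (vertical axis) by pooled within-group SD of normalized log2(FPKM + 1) (horizontal log axis) for 11634 tested genes, with lines at the 9 axis genes. Socs2 and Cish at 0.65 and Bcl6 at 1.22 lie in the right tail, and the median gene is at 0.12.

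No member had an adjusted limma p under 0.05 in any of the 7 comparisons made. For the genotypes on HFD this was 0 of 9 members, where 0.043% of all tested genes passed, and 2 of 9 had an unadjusted p under 0.05 against 9.58% of all genes. The permutation rule called 1 of 9 members on HFD, Socs2, where it called 4% of all genes. In that comparison the libraries did not overlap for 2 members that were higher in LKO (Jak2 and Stat5b), where 19.1% of genes did so, and for 2 that were lower (Socs2 and Igfals), where 23% did. On CD, 0 of 9 members passed by limma and 1 had an unadjusted p under 0.05 (0.0172% and 12.3% of all genes). The permutation rule called none there against 4.61% of genes, but with the lower fold cutoff that the study used it called Stat5a, where 5.45% of genes were called. It also called Stat5a among genes that exceeded 1 FPKM in each of the 8 libraries, and Stat5a and Cish when all genes above 0 FPKM were kept. Stat5a and Cish were higher in LKO without overlap, where 20.8% of genes were.

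For the diets, 0 of 9 members passed in f/f (1.33% of all genes) and 1 had an unadjusted limma p under 0.05 (19.2%). In LKO 0 of 9 passed (3.02%), and none had an unadjusted p under 0.05 (21.3%). The f/f-labelled libraries were higher on HFD without overlap for Jak2 and Igfals (22.3% of all genes) and lower for Ghr (27.6%). The LKO-labelled libraries were higher on HFD for Jak2 (22.9%) and lower for Socs2, Cish, Igf1 and Igfals (30.2%). For the difference between genotype effects 0 of 9 passed by limma (0.0344%), and 1 of 9 had an unadjusted p under 0.05 (8.35%). Averaged over diets, 0 of 9 passed for genotype (0.103%) and 1 had an unadjusted p under 0.05 (13.5%), and averaged over genotypes 0 of 9 passed for diet (9.89%) and 1 had an unadjusted p under 0.05 (27.9%). With 2 libraries a group, an exact permutation test of a single gene cannot go below p = 0.333, so the limma values depend on the spread pooled over groups and genes.

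**Figure D4:**
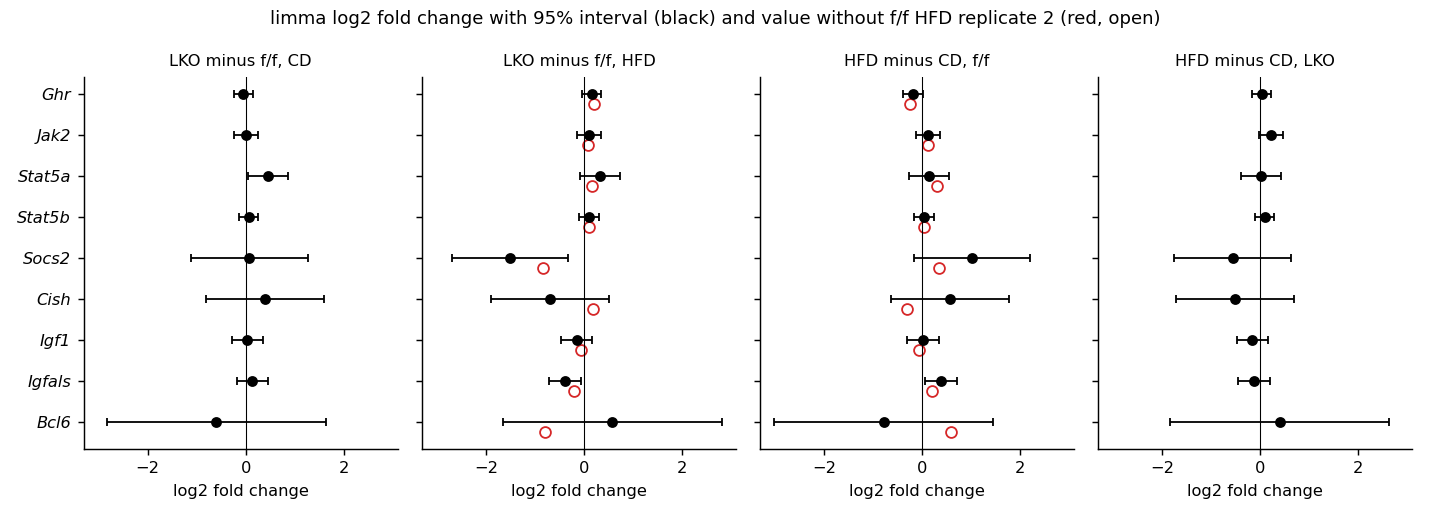
limma log2 fold change of each gene (black points, with 95% intervals) for the genotypes on CD and HFD and for the diets in the f/f-labelled and LKO-labelled libraries, and the value without the f/f-labelled HFD library 2 (red open circles). Without that library Socs2 on HFD moves from -1.51 to -0.83, and Cish and Bcl6 change sign.

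The genes whose library pattern was most like that of a member were found by the root mean square (RMS) difference of log2 deviations from the gene's own mean over the 8 libraries, among 10732 genes with a mean FPKM above 1. For Igf1 they were Slc26a11, Rpp30 and Slc39a13, at RMS differences of 0.04, 0.05 and 0.05 log2. For Socs2 they were Gmppb, Fmo2 and Slc43a1, at 0.38, 0.38 and 0.43, set against an RMS deviation of 0.71 for Socs2 itself. For Cish they were Rgs3, Clec2h and Gbp11, at 0.22, 0.26 and 0.28. Rgs3 had its highest value, 6.03 FPKM, in the f/f-labelled HFD library 2, as Cish did. For Bcl6 they were Gm25082, listed at 0 in 1 library, Fpr1 and Marco, at 0.47, 0.61 and 0.64. Fpr1, a receptor of neutrophils and monocytes, had 3.00 FPKM in the LKO-labelled HFD library 1 and 0.913 FPKM in the f/f-labelled HFD library 2, and the macrophage receptor Marco had 9.71 and 1.12 FPKM there. Marco was lower still in the LKO-labelled HFD library 2 (1.09 FPKM) and CD library 2 (0.599 FPKM). In the f/f-labelled CD library 2, where Bcl6 was highest, Marco had 3.34 FPKM. The genes named here are the closest of many genes over 8 libraries that share groups, and carry no test.

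The other genes of the pathway were taken from 6 lists of 99 genes in all, also assembled with earlier results known. In the list of receptors, kinases, STATs and adaptors around GHR, 21 of 22 genes were tested, and limma called none in either genotype comparison or in either genotype's diet comparison. At an unadjusted p under 0.05 there were 0 genes for genotype on HFD, and 1 higher and 1 lower of the 21 on CD. Over all genes, with both directions together, these shares were 9.58% and 12.3%. Averaged over genotypes, Ptpn1, a phosphatase that acts on JAK2, fell on HFD by 0.22 on the log2 scale (SE 0.05, adjusted p = 0.0496 by limma), a call lost when each of the 8 libraries in turn was left out. Of the 8 CIS and SOCS genes 7 were tested, and Socs7 fell on HFD by 0.30 on the log2 scale (SE 0.07, adjusted p = 0.040 by limma), a call likewise lost without each library in turn. Socs3, an inhibitor of cytokine signaling, was at 4.10 and 3.24 FPKM in LKO against 1.55 and 1.97 FPKM in f/f on CD, and the permutation rule called it there (log2 difference 0.72, SE 0.19, adjusted limma p = 0.247). All 7 tested genes of the SOCS list had a negative genotype difference on HFD, where 49.2% of all genes had a positive one. Their median was -0.12 log2 against 0.00 over all genes. The difference of Socs7 was only -0.0023 log2, and that of Cish was 0.18 without the f/f-labelled HFD library 2. Those of Socs3, Socs4 and Socs6 were -0.12, -0.05 and -0.03 log2, each smaller than its standard error (0.19, 0.13 and 0.09). On CD 2 of 7 had a negative difference.

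Of the 15 IGF ligands, receptors and binding proteins 9 were tested. Igfbp1, an IGF-binding protein that insulin represses, had 49.0 and 99.0 FPKM in f/f on CD, 25.2 and 77.8 FPKM in LKO on CD, 15.2 and 8.20 FPKM in f/f on HFD and 17.0 and 15.5 FPKM in LKO on HFD. The HFD libraries were below the CD libraries in both genotypes, and averaged over them Igfbp1 fell by 1.93 on the log2 scale (SE 0.39, adjusted p = 0.030 by limma). That call was lost without 7 of the 8 libraries in turn (all but the LKO-labelled CD library 1), while the difference stayed between -2.31 and -1.54. No other gene of the list passed.

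Hepatocyte transcription factors that bind beside STAT5 were tested in full, 8 of 8. Onecut1 (HNF6), itself known to respond to growth hormone in liver, had 5.39 and 4.17 FPKM in f/f on CD, 12 and 13.3 FPKM in LKO on CD, 6.79 and 28.5 FPKM in f/f on HFD and 3.92 and 5.99 FPKM in LKO on HFD. The library with the highest Onecut1, the f/f-labelled HFD library 2, was also the one with the highest Socs2 and Cish and the lowest Bcl6, and the lowest HFD value of Onecut1 was in the library with the lowest Cish. The permutation rule called Onecut1 higher in LKO on CD (1.25, SE 0.55, adjusted limma p = 0.423) and lower on HFD (-1.36, SE 0.55, adjusted limma p = 0.504), the latter at -0.39 without the f/f-labelled HFD library 2. Cebpa rose on HFD in f/f, from 73.6 and 65.9 FPKM to 104 and 98.5 FPKM (0.59, SE 0.08, adjusted p = 0.037 by limma), a call lost without each of the 8 libraries in turn. Averaged over genotypes Cebpb fell by 0.55 on the log2 scale and Hnf4a rose by 0.28 (adjusted limma p of 0.032 and 0.048). The call of Hnf4a was lost without each library in turn, that of Cebpb without 7 of the 8 (all but the f/f-labelled HFD library 1).

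Among liver genes that growth hormone makes sex-biased, some of the male-biased ones fell on HFD. Of 24 male-biased genes 23 were tested, Bcl6 among them. Averaged over genotypes all 23 had a negative diet difference (21 to 23 when 1 library was left out), with a median of -0.84 log2 against 0.01 over all genes. By limma 13 of 23 fell at an adjusted p under 0.05 and none rose, where 4.86% of all tested genes fell. Requiring an FPKM above 1 in all 8 libraries left 21 of them, of which all 21 had a negative difference and 12 fell, so the count does not rest on genes that passed the filter only through the CD groups. For that filter the share of all genes that fell is not given here. Leaving out 1 library in turn lowered the count of male-biased genes that fell. It also lowered the number of all genes called for the averaged diet, so the 2 drops cannot be told apart. The median of the 23 genes stayed between -1.01 and -0.74 log2 in these refits.

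Ugt2b38, a glucuronosyltransferase, had 8.69 and 19.2 FPKM in f/f on CD and 0.697 and 0.352 FPKM on HFD, and in LKO 4.42 and 12.9 FPKM on CD and 0.210 and 0.583 FPKM on HFD (averaged log2 difference -2.92, SE 0.36, adjusted p = 0.0079 by limma). Selenbp2, a selenium-binding protein, fell by 2.25 on the log2 scale (SE 0.28, adjusted p = 0.0084 by limma), from 438 and 389 FPKM to 125 and 67.7 FPKM in f/f and from 248 and 460.5 FPKM to 44.2 and 75.7 FPKM in LKO. Moxd1, a relative of dopamine beta-hydroxylase, was at 9.08 and 21.1 FPKM in f/f on CD and 1.23 and 5.55 FPKM in LKO on CD, and near or at 0 on HFD (averaged log2 difference -2.85, adjusted p = 0.0094 by limma). Ugt2b38 and Moxd1 passed the expression filter only through their CD values. Neither was tested when an FPKM above 1 was required in all 8 libraries. Cyp4a12b, a fatty acid hydroxylase, fell by 1.59 on the log2 scale (SE 0.23, adjusted p = 0.012 by limma). The calls of Ugt2b38 and Selenbp2 held without each library in turn, those of Moxd1 and Cyp4a12b were lost without 3 and 5 of the 8. Major urinary protein genes, Cyp4a12a and Cyp4a12b, and Ugt2b and Selenbp genes have close copies, and FPKM may be split between such copies. Copies that are both on the list are not independent of each other, so the counts of male-biased genes may hold a shared signal repeatedly.

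**Figure D5:**
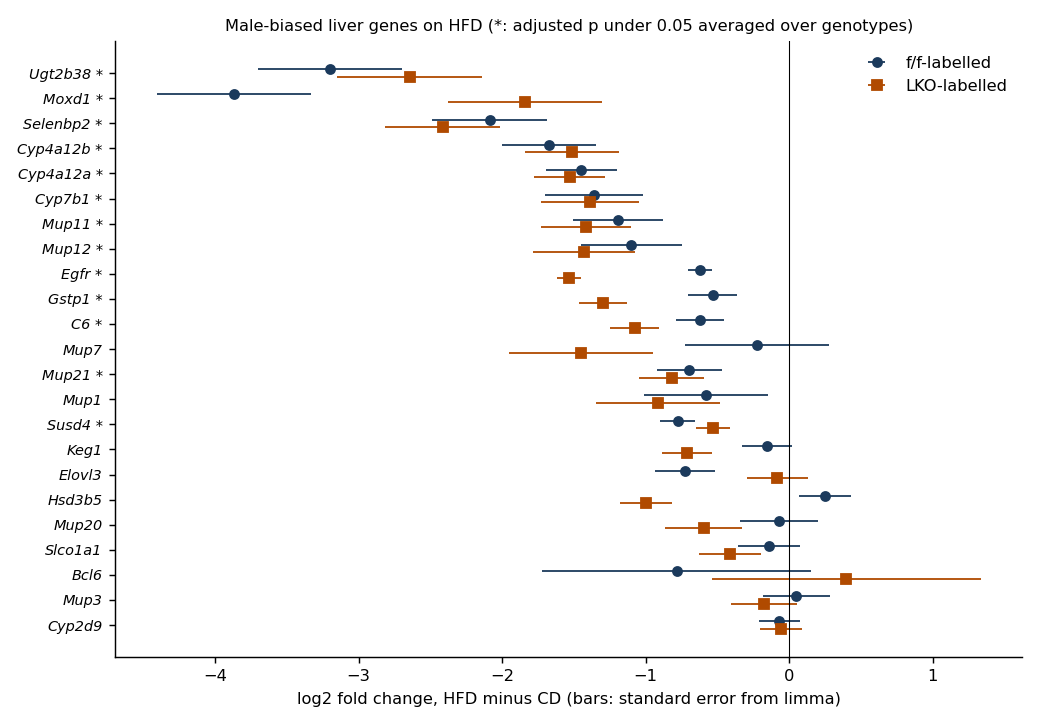
limma log2 fold change of HFD against CD (horizontal axis, bars are standard errors) for the 23 tested male-biased genes, in f/f-labelled (circles) and LKO-labelled (squares) libraries. Asterisks mark the 13 genes with an adjusted p under 0.05 averaged over genotypes, and most points lie left of 0, in f/f for 21 of 23 genes and in LKO for 22 of 23.

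Between genotypes on HFD the male-biased list had a median of -0.60 log2 against 0.00 over all genes. The median was -0.19 without the f/f-labelled HFD library 1 and -0.35 without the LKO-labelled HFD library 2. In that comparison 16 of 23 genes had a negative difference and none passed by limma. At an unadjusted p under 0.05 there were 1 higher and 7 lower, against 635 higher and 479 lower of all 11634 genes. The permutation rule called 10 lower and 1 higher, where it called 1.78% and 2.22% of all genes. With a pseudocount of 0.1 it called 6 lower. On CD the median was -0.10, and the rule called 4 lower and none higher, against 2.23% and 2.37% of all genes. For the difference between those 2 genotype effects none of the 23 genes passed by limma. At an unadjusted p under 0.05 there were 1 higher and 3 lower, against 506 higher and 466 lower of all 11634 genes. Of 22 female-biased genes only 8 were tested. Averaged over genotypes 4 of the 8 rose on HFD (5.04% of all genes rose): Cyp2b9 from 2.75 and 6.62 FPKM to 28.6 and 55.1 FPKM in f/f (averaged 3.07, SE 0.33, adjusted p = 0.0059 by limma), Abcd2 by 1.57 (adjusted limma p of 0.0043), Cyp2b13 by 1.55 (adjusted limma p of 0.035) and, outside the naming rule, Tox by 0.72 (adjusted limma p of 0.028). Cyp2b13 was listed at 0 in both f/f-labelled CD libraries and passed the expression filter only through its HFD values, and Abcd2 was below 1 FPKM in both f/f-labelled CD libraries (0.369 and 0.883 FPKM). With an FPKM above 1 required in all 8 libraries, Cyp2b13 and Abcd2 were not tested, and 2 female-biased genes rose, Cyp2b9 and Tox. The share of all genes that rose under that filter is not given here. Cyp2b10, which other nuclear receptors also control, fell by 1.55 on the log2 scale (SE 0.12, adjusted p = 0.0033 by limma). The calls of Cyp2b9, Abcd2 and Cyp2b10 held without each library in turn, and those of Cyp2b13 and Tox were lost without 7 of the 8 libraries (all but the f/f-labelled HFD library 1 and the LKO-labelled HFD library 1, in that order). Growth hormone itself, STAT5 phosphorylation and female livers were not measured in these libraries.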

How the data were processed

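Poly(A) RNA of 8 liver libraries was sequenced, and per the labels and methods the authors trimmed reads with cutadapt 1.0, aligned them to GRCm38 with TopHat2 2.0.7 and computed gene-level FPKM with Cufflinks, which the deposited table holds for 38283 genes (36341 with a symbol). FPKM can be split between near-identical or overlapping genes. The members, lists and tests were chosen with earlier results of these data known. The 11634 genes that exceeded 1 FPKM in any library were taken as log2(FPKM + 1), quantile-normalized and fitted with limma 3.58.1 in R 4.3.3 (4 groups, 1 fit, trended prior, Benjamini-Hochberg adjustment over all genes). A permutation rule modelled on the study's used 100 of 210 regroupings of the libraries, fewer than the study drew, and its own fold cutoff. Scripts were tested on simulated data. Replicates carry numbers 1 and 2, but same-numbered libraries deviated together with r = -0.0037 to 0.149 and below 0.04 without genes listed at 0, so the numbers were not taken as pairs. Of each list, up to 4 called genes with the largest change were named, and for 4 members the 3 genes of most similar pattern. Alternatives were other scalings, a pseudocount of 0.1, other filters, a replicate block, no trend, the compared groups alone and leaving out each library. Loci are from GENCODE (GRCm38), promoters from RefSeq (GRCm38.p6). The result of 1 list gene is not reported here.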

Additional observations from a re-analysis of the deposited data

Results flagged for a closer look

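The diet differences of Igfals had opposite signs in the 2 genotypes, where both f/f-labelled libraries were higher on HFD and both LKO-labelled libraries lower. The difference between the diet effects was -0.52 log2 (SE 0.19, adjusted p = 0.576 by limma), so it did not pass the correction. It was -0.34 without the f/f-labelled HFD library 2.

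Cebpa was higher in LKO than in f/f on CD (0.46) and lower on HFD (-0.41), and higher on HFD in f/f and lower in LKO, each without overlap. The difference between the genotype effects, and likewise between the diet effects, was -0.87 log2 (SE 0.11, adjusted p = 0.229 by limma).

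Onecut1 showed the same crossing with a larger size and spread, -2.60 log2 (SE 0.78, adjusted p = 0.558 by limma) for both. Socs3 was higher on HFD in f/f and lower in LKO, a difference between diet effects of -0.84 log2 (SE 0.27, adjusted p = 0.558 by limma). All 4 patterns share the same 4 groups of 2 libraries, and none passed the correction.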

How the results depend on the processing

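No value of the 9 genes reached an adjusted limma p under 0.05 under any alternative: 9 of 470 values changed sign under other scalings, filters or fits, and 46 of 504 when 1 library was left out. Without normalization and with median centring, the genotype difference of Jak2 on CD became 0.0093 and 0.015, the diet difference of Igf1 in f/f -0.088 and -0.062, and that of Ghr in LKO -0.061 and -0.033, and that of Stat5a in LKO became -0.0067 without normalization. Leaving out 1 library gave ranges that crossed 0, on the log2 scale. For genotype on HFD they were -1.56 to 0.18 for Cish and -0.80 to 1.97 for Bcl6. For genotype on CD they were -0.13 to 0.027 for Ghr, -0.10 to 0.10 for Jak2, -0.043 to 0.16 for Stat5b, -0.52 to 0.66 for Socs2, -0.13 to 0.20 for Igf1 and -1.25 to 0.049 for Bcl6. For diet in f/f they were -0.017 to 0.31 for Stat5a, -0.30 to 1.44 for Cish, -0.15 to 0.18 for Igf1 and -2.17 to 0.60 for Bcl6, and for diet in LKO -0.023 to 0.079 for Ghr, -0.17 to 0.21 for Stat5a, -0.012 to 0.19 for Stat5b and -0.39 to 1.19 for Bcl6. The cause was not tested.

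Counts of genes with an adjusted limma p under 0.05 moved more. With genes above 0 FPKM in any library kept, they were 24 for genotype on HFD (5 as reported), 10 on CD (2), 19 for the difference between genotype effects (4), 46 for diet in f/f (155), 135 in LKO (351), 28 for averaged genotype (12) and 704 for averaged diet (1151), and the permutation rule called 860 genes on HFD (465) and 1016 on CD (536). With FPKM above 1 required in all 8 libraries, which leaves Cish untested, they were 7 for genotype on CD, 0 for the difference, 323 for diet in f/f, 570 in LKO and 50 for averaged genotype. A pseudocount of 0.1 gave 1 for genotype on CD and 2 for the difference, no normalization gave 7 for averaged genotype, and limma without the trend gave 4 for genotype on CD, 42 for diet in f/f and 229 in LKO. With the compared libraries alone there were 0 for genotype on CD, 5 for diet in f/f and 0 in LKO. Without 1 library they were 4 to 25 for genotype on HFD, 2 to 20 on CD, 11 to 21 for the difference, 12 to 34 for diet in f/f, 19 to 79 in LKO, 12 to 27 for averaged genotype and 335 to 728 for averaged diet.

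The permutation rule called 2 members on HFD (Socs2 and Igfals) and 2 on CD (Stat5a and Cish) with the filter at 0 FPKM, and 1 on CD (Stat5a) with FPKM above 1 in all 8 libraries. With the study's lower fold cutoff, an alternative added after seeing the data, it called 537 genes on HFD, 634 on CD, and 1 member in each (Socs2 and Stat5a). It was not rerun without single libraries. The counts of list genes under alternatives were added after seeing the data: 6 to 10 male-biased genes fell on HFD without 1 library, 2 female-biased genes rose under either other filter and 2 to 3 without 1 library, and the rule called 6 male-biased genes lower on HFD with a pseudocount of 0.1. The replicate numbers did not pair the libraries, and a replicate block changed no member's call, but with it 34 genes were called for diet in f/f and 223 in LKO, and Ptpn1, Socs7, Hnf4a and Cebpa lost their calls. Over the alternatives that kept all libraries of a comparison, Ptpn1 lost its call in 6 of 7, Hnf4a in 5 of 7, Cebpa in 4 of 8 and Socs7 in 2 of 7. Igfbp1, Cyp2b13, Tox and Cebpb lost theirs with genes above 0 FPKM kept. FPKM carry no read counts, so what depth limits cannot be given.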
